A study of Mus musculus with 12 samples.

Results

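A set of 10 genes of the 2-cell-like state of mouse embryonic stem cells, all outside the Zscan4 family, was followed across 12 total RNA libraries: Zfp352, Tmem92, Tcstv1, Tcstv3, Tdpoz4, BC080695, Usp17la, Usp17lc, Sp110 and Arg2. They are 10 of the 39179 genes in the deposited count table and were taken by gene symbol. The list rests on the genes that were low in the Smad1/5 knockout libraries, so the values between knockout and floxed cells are given as a description, without a test. The knockout group (KO, Smad1/5 -/-, 4 libraries) was set against floxed cells (FL, Smad1/5 fl/fl, 2 libraries). Both had a mixed background of CD-1, 129/Ola and C57Bl/6 and were grown in 2i with Lif on gelatin. Of 2 parental lines, each gave 1 FL library and a pair of KO libraries, and the labels do not tie a library to its line. The second experiment used a line that carries GFP under a BMP response element (BRE-GFP, mixed CBA and C57Bl/6), grown in FCS with Lif on feeders and sorted on SSEA1 and GFP. Its BRE-positive group (3 libraries) was set against the BRE-negative group (3 libraries), collected as pairs at 3 times. The labels do not say how the floxed alleles were deleted.

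A small and changing fraction of embryonic stem cells passes for a short time through a state in which genes of the 2-cell embryo are switched on. Its known marks are the retroviral element MERVL, the Zscan4 genes and a set of recently duplicated gene families, and the transcription factor DUX, encoded by Duxf3, is known to switch on many of them. SMAD1 and SMAD5 carry the signal of bone morphogenetic proteins (BMPs) into the nucleus. The comparison of KO with FL cells asks what the loss of both factors changes in 2i, and that of BRE-positive with BRE-negative cells asks what sets apart cells whose BMP reporter is on.

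Library totals ran from 30117843 to 37319846 counts in KO, 33272807 and 35736653 in FL, 25862573 to 37079106 in BRE-positive and 29804485 to 35044852 in BRE-negative cells. Smad1 had 427, 619, 489 and 373 counts in KO replicates 1 to 4, against 643 and 665 in FL. Smad5 had 880, 893, 1176 and 1046 counts in KO, against 1136 and 1153 in FL. The deleted part of either gene is not given, so these counts check no genotype. The 8 pluripotent stem cell markers, Pou5f1, Sox2 and Nanog among them, summed to 3820 to 4504 CPM in KO, 4527 to 4772 in FL, 4390 to 4963 in BRE-positive and 4088 to 5262 in BRE-negative libraries (CPM, counts scaled to a common library size by edgeR's TMM factors). Of these markers Nanog alone was called, lower in KO (-0.60 ± 0.06 on the log2 scale, edgeR adjusted p = 0.0061), a call that ended without FL replicate 1. The 12 feeder fibroblast markers summed to 860 to 951 CPM in KO and 664 to 732 CPM in FL, nearly all of it Fn1 and Vim, which were higher in KO without passing (0.24 ± 0.09 and 0.65 ± 0.16, edgeR adjusted p = 0.18 and 0.062). The other 10 summed to 6.66 to 10.1 CPM in KO, with Postn and Lum at 0 in all 4 libraries, and to 8.52 to 12.8 in FL. In the reporter experiment all 12 summed to 1474 to 1855 CPM in BRE-positive and 1415 to 1726 in BRE-negative libraries, and these 10 to 45.03 to 135 CPM in BRE-positive and 73.2 to 158 in BRE-negative libraries. Of the 12, 4 were called lower in BRE-positive cells and 0 higher, against 1.02% and 1.96% of all genes tested. The 4 were Acta2, Fbln2, Vim and Col1a2 (edgeR adjusted p between 0.0036 and 0.028). The median log2 fold change of the 12 was -0.42, and 10 were fitted below 0. The part of these markers in the results was not tested.

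The promoters of 5 of the 10 genes are in the RefSeq promoter table (build GRCm38.p6). The 250 bases before 2 of these starts are shown first because they share a repeated element. Capitals mark each copy of ACACCTTTAATC, on either strand, and the letters ATATAAGG. Both were chosen after the promoters had been read, and where they lie in a member's promoter is a description only. The Zfp352 promoter lies at chr4:90218570-90218819 on the plus strand, and that of the upstream of the 2 Sp110 starts at chr1:85603892-85604141 on the minus strand. This upstream start lies outside the span that GENCODE M21 gives Sp110, and the other start lies at its edge.
Zfp352: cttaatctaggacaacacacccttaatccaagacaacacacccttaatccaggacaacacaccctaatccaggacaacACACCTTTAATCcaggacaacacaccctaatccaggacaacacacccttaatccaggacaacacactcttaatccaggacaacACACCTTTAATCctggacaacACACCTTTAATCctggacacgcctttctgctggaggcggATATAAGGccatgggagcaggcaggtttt
Sp110: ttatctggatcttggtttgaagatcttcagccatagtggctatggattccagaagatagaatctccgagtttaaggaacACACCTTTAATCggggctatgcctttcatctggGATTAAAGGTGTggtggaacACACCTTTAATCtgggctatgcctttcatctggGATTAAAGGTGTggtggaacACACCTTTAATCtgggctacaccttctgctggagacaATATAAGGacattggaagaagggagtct
Sp110 held 5 copies of the 12 letters and Zfp352 held 3, with ATATAAGG 28 bases before the start in Sp110 and 29 in Zfp352. Of 32851 mouse promoters in the table, 51 (0.155%) held the 12 letters, 232 (0.706%) held ATATAAGG and 32 (0.0974%) held both in the same 250 bases. Of the genes outside the list with both, 4 were tested between KO and FL. None was called lower or higher, and their median log2 fold change was -0.02. The second Sp110 start and the Tdpoz4 promoter had no copy of either.

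Usp17la and Usp17lc, on chromosome 7, are shown because their promoters can be compared base by base. Capitals mark TATAAA. The Usp17lc promoter lies at chr7:103416446-103416695 and the Usp17la promoter at chr7:104856766-104857015, both on the plus strand. The RefSeq start of Usp17lc lies inside the span that GENCODE M21 gives the gene.
Usp17lc: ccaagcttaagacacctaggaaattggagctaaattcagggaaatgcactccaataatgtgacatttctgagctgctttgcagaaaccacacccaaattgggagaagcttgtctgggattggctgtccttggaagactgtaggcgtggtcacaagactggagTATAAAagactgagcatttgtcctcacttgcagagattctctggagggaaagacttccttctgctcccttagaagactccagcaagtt
Usp17la: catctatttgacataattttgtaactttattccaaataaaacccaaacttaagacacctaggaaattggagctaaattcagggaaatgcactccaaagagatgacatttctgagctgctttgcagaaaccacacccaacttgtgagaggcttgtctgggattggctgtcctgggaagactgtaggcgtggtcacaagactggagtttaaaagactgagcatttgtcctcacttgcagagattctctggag
Over 208 aligned bases the promoters were identical at 198 (95.2%). TATAAA began 88 bases before the Usp17lc start. In Usp17la the aligned letters differ by A2T, counted from 1 at the first letter of TATAAA in Usp17lc. TATAAA, on either strand, is in 12.4% of the 32851 promoters over the same 250 bases. In the 250 bases before the 6 starts of the 5 genes, the GC-rich SMAD letters GGCGCC (9.59% of all promoters), the ZSCAN4 letters TGCACAC (3.67%) and the consensus motif of DUX (0.0304%) did not occur on either strand. Around the same 6 starts there were between 0 and 5 CG dinucleotides in 300 bases, against a median of 7 over all promoters, and 31.4% of all promoters had 3 or fewer.

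All 10 genes were lower in KO than in FL cells. Their summed level was 7.89, 2.01, 7.89 and 6.89 CPM in KO replicates 1 to 4, against 45.1 and 63.0 CPM in FL replicates 1 and 2. That is 6.17 ± 2.82 CPM in KO (SD, n = 4) and 54.1 ± 12.7 CPM in FL (SD, n = 2). In bulk libraries such as these, fewer cells in the state and less RNA per cell cannot be told apart. The highest KO library lay below the lowest FL library for 10 of 10 genes. The same separation held for 16.8% of all 15933 genes tested, and the opposite one for 17.7%. edgeR's quasi-likelihood test with Benjamini-Hochberg adjustment called 3.18% of them lower and 5.03% in either direction. A fitted value at least 4-fold lower was found for 1.27% of all genes, and the members were chosen on this contrast, so nothing is read from their count. All 10 passed the filter on low counts, which a gene can pass through the 2 FL libraries alone. Their fitted changes ranked between the 16th and the 176th largest fall, as Tcstv3 and Arg2, with a median log2 fold change of -3.01, against 0.01 over all genes tested.

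**Figure D1:**
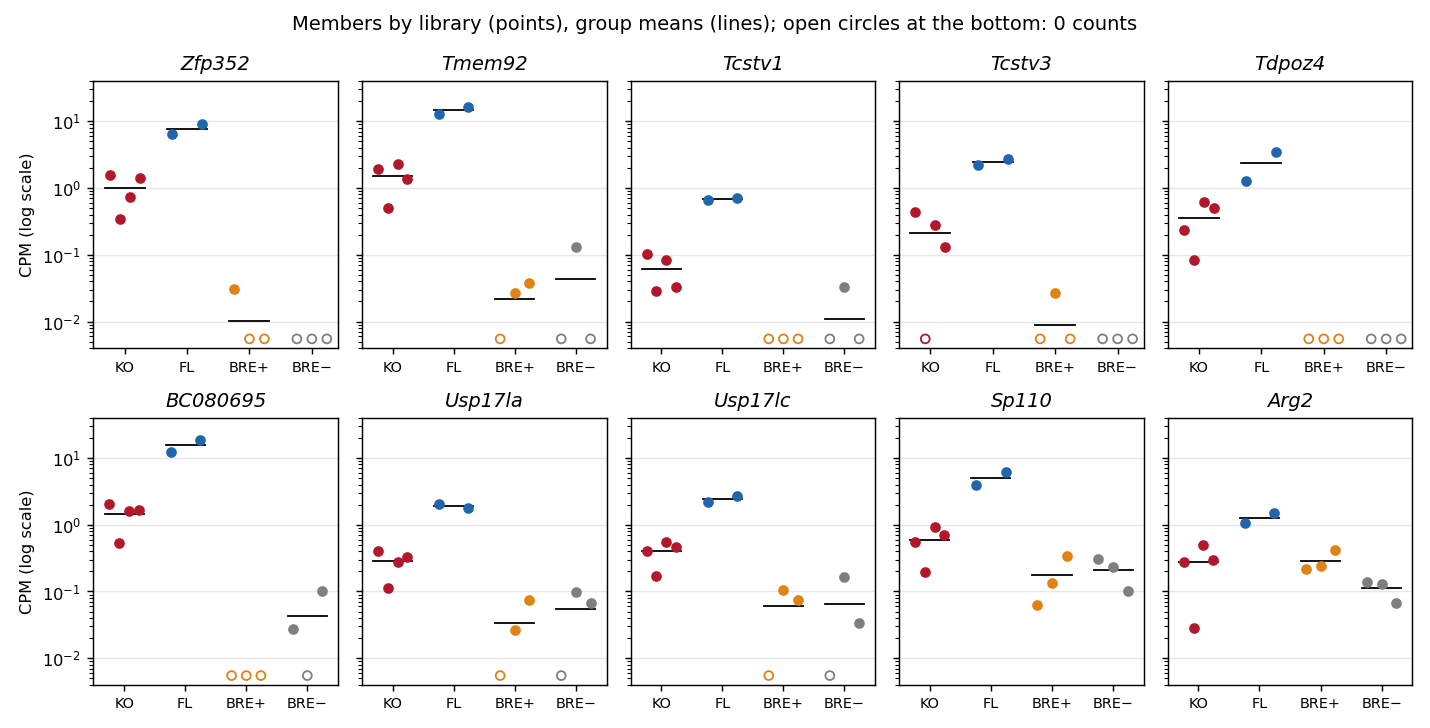
CPM of each of the 10 genes in each library on a log axis, with 4 KO, 2 FL, 3 BRE-positive (BRE+) and 3 BRE-negative (BRE−) libraries as points and group means as lines. Libraries with 0 counts are open circles at the bottom, and the KO points lie below the FL points in all 10 panels.

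Zfp352 and Tmem92 are used as marks of the 2-cell-like state. Zfp352 (ENSMUSG00000070902, chromosome 4, 90218820 to 90225702, GENCODE M21 on GRCm38) encodes a zinc finger protein expressed in the 2-cell embryo. It had 1.56, 0.339, 0.745 and 1.42 CPM in KO replicates 1 to 4, against 6.51 and 8.93 CPM in FL (log2 fold change -2.94 ± 0.45, SE). The KO libraries spread over a wider ratio than the FL libraries but stayed below them. Tmem92 (ENSMUSG00000075610, chromosome 11, 94777217 to 94782703) encodes a transmembrane protein. It had 1.91, 0.508, 2.32 and 1.35 CPM in KO, against 12.9 and 16.6 CPM in FL (-3.28 ± 0.42). It had 437 and 608 counts in FL, and only BC080695, with 419 and 680, was covered as well.

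Tcstv1 and Tcstv3 belong to the 2-cell-stage variable group, a small family named for its expression in the 2-cell embryo. Both lie on chromosome 13, Tcstv1 (ENSMUSG00000096284) at 119893388 to 119894785 and Tcstv3 (ENSMUSG00000095821) at 120316878 to 120318178, with 422093 bases between them. Tcstv3 had 13, 0, 10 and 4 counts in KO, against 75 and 100 in FL, which is 0.442, 0, 0.276 and 0.132 CPM in KO against 2.22 and 2.73 CPM in FL. KO replicate 2 held no count of it, which allows up to 0.0828 CPM at 3 counts of that library's total without its TMM factor (counting error only). Its log2 fold change of -3.55 ± 0.66 was the lowest of the 10. Tcstv1 was the least covered, with 3, 1, 3 and 1 counts in KO, against 22 and 26 in FL (-3.40 ± 0.48).

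Tdpoz4 (ENSMUSG00000060256, chromosome 3, 93796398 to 93797510, 1 exon) encodes a protein with TRAF and POZ domains. It had 0.238, 0.085, 0.607 and 0.495 CPM in KO, against 1.27 and 3.44 CPM in FL (-2.71 ± 0.61). The FL libraries differed more for this gene than for the other 9, and without FL replicate 2 its log2 fold change was -1.84. Its copy Tdpoz3 had -2.50 ± 0.61 (edgeR adjusted p = 0.059). BC080695 (ENSMUSG00000070618, chromosome 4, 143551700 to 143573798) shares transcript sequence with Pramef25 and others of the PRAME family. It had 2.01, 0.537, 1.63 and 1.68 CPM in KO, against 12.4 and 18.6 CPM in FL (-3.41 ± 0.39).

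Usp17la (ENSMUSG00000054568, chromosome 7, 104857009 to 104862667) and Usp17lc (ENSMUSG00000058976, chromosome 7, 103415072 to 103419880) encode deubiquitinases first known as DUB1 and DUB2, which cytokines induce in mouse blood cells. Usp17la had 0.408, 0.113, 0.276 and 0.330 CPM in KO, against 2.04 and 1.803 CPM in FL (-2.77 ± 0.39). It was the 1 gene of the 10 with more in FL replicate 1 than in FL replicate 2. Usp17lc had 0.408, 0.169, 0.552 and 0.462 CPM in KO, against 2.16 and 2.68 CPM in FL (-2.59 ± 0.38). Of the same family, Usp17lb (-2.46 ± 0.40), Usp17ld (-2.62 ± 0.40) and Usp17le (-2.999 ± 0.45) also fell (edgeR adjusted p between 0.016 and 0.019). These calls ended without either FL library, and that of Usp17lb also without KO replicate 4.

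Sp110 and Arg2 are also known outside the embryo. Sp110 (ENSMUSG00000070034, chromosome 1, 85576899 to 85598817, minus strand) encodes a nuclear body protein linked to resistance to intracellular bacteria in mice. It had 0.544, 0.198, 0.911 and 0.693 CPM in KO, against 3.87 and 6.07 CPM in FL (-3.07 ± 0.44). Arg2 (ENSMUSG00000021125, chromosome 12, 79130777 to 79156301) encodes the mitochondrial arginase, which splits arginine into ornithine and urea. It had 0.272, 0.028, 0.497 and 0.297 CPM in KO, against 1.06 and 1.48 CPM in FL (-2.20 ± 0.60), the smallest of the 10 fitted changes. Of their relatives, Sp140 had -1.69 ± 0.48 (edgeR adjusted p = 0.089), and Arg1, the cytosolic arginase, had 0 counts in all 4 KO libraries and 0 and 1 in FL. Zfp353-ps, a pseudogene related to Zfp352, fell (-2.12 ± 0.43, edgeR adjusted p = 0.036), but did not pass in any of the 6 fits without 1 of the libraries.

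KO replicate 2 was the lowest of the KO libraries for all 10 genes. Against the mean of the FL libraries, it held between 0% (Tcstv3) and 7.01% (Usp17lc). KO replicate 1 held between 10.1% (Tdpoz4) and 21.4% (Arg2), KO replicate 3 between 9.65% (Zfp352) and 39.1% (Arg2), and KO replicate 4 between 4.85% (Tcstv1) and 23.4% (Arg2). KO replicate 1 was highest for 5 genes and KO replicate 3 for the other 5. Tcstv1, Tcstv3, Zfp352, BC080695 and Usp17la were the 5 highest in replicate 1. BC080695 made up 24.3% ± 2.6 of the summed CPM in KO (SD, n = 4) and 28.5% ± 1.4 in FL (SD, n = 2), Tmem92 24.6% ± 4.0 in KO and 27.5% ± 1.6 in FL, and Zfp352 16.7% ± 5.1 in KO and 14.3% ± 0.2 in FL. The share of Tcstv3 was 2.75% ± 2.38 in KO and 4.63% ± 0.41 in FL, and that of Arg2 ran from 1.41% to 6.29% over the KO libraries. Across the 6 libraries, which share the difference of KO from FL, the 45 pairs of members had Pearson correlations of log2 CPM between 0.857 and 0.998, with a median of 0.958. Over all 12 libraries they ran from 0.664 (Arg2 with BC080695) to 0.986, with a median of 0.932. Those of Arg2 were at most 0.854 (with Sp110).

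**Figure D2:**
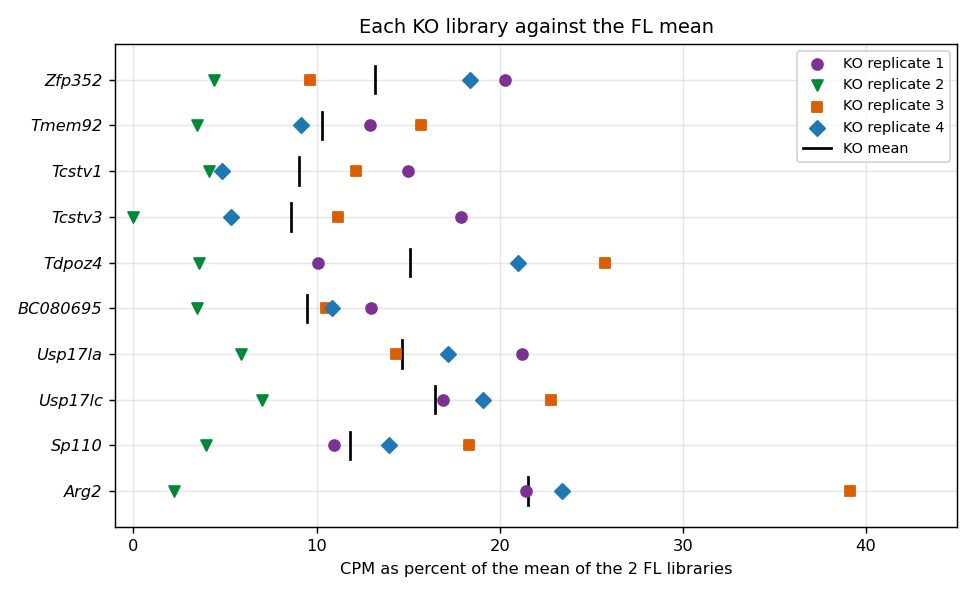
CPM of each gene in each of the 4 KO libraries (symbols) and their mean (bars) as a percent of the mean of the 2 FL libraries. KO replicate 2 lies leftmost in every row, and Arg2 in KO replicate 3, at 39.1%, is the highest point.

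Levels of different genes were compared on the deposited TPM scale, which divides by gene length and adds 1 count to every gene. The lengths behind it are not given, and for several members they do not match the exon lengths of GENCODE M21. The order of the genes depends on these lengths and holds for the deposited values only. In FL the order of mean levels was Tcstv3 (13.6 TPM, range 12.1 to 15.1), BC080695 (13.0, 10.3 to 15.7), Tmem92 (9.08, 7.87 to 10.3), Tdpoz4 (5.94, 3.20 to 8.68), Zfp352 (5.45, 4.55 to 6.34), Arg2 (2.51, 2.10 to 2.93), Usp17la (2.03, 1.92 to 2.13), Usp17lc (1.65, 1.46 to 1.84), Sp110 (1.26, 0.975 to 1.55) and Tcstv1 (0.908, 0.863 to 0.953). The ranges of Tcstv3 and BC080695 overlapped, as did those of Tdpoz4 with both of its neighbours in the order, of Arg2 with Usp17la and of Usp17lc with Sp110. In KO all 10 lay between 0.115 TPM (Tcstv1) and 1.29 TPM (Tcstv3) on average, and the ranges of neighbours in the order overlapped throughout, in the order Tcstv3, BC080695, Tdpoz4, Tmem92, Zfp352, Arg2, Usp17la, Usp17lc, Sp110 and Tcstv1.

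The BRE libraries, from another line, strain mix and medium, held little RNA of these genes. Line, strain, feeders, medium and sorting differ together from the Smad1/5 libraries and cannot be told apart. The 10 genes summed to 10, 21 and 25 counts in BRE-positive libraries 1 to 3, against 17, 24 and 11 in BRE-negative libraries 1 to 3. As CPM this was 0.311, 0.561 and 0.939 in BRE-positive, against 0.472, 0.785 and 0.370 in BRE-negative libraries, and the groups overlapped. Tdpoz4 had no count in any of the 6 libraries, which allows up to 0.0809 to 0.116 CPM per library at 3 counts without the TMM factors. BC080695 had no count in BRE-positive libraries and 1, 0 and 3 in BRE-negative ones. Zfp352, Tcstv1 and Tcstv3 had 1 count each over all 6 libraries, Tmem92 had 6, Usp17la 8 and Usp17lc 12. None of the 10 passed the filter on low counts in this comparison, so none was tested, while 459 of 15435 genes (2.97%) were called, 1.96% higher and 1.02% lower.

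Arg2 and Sp110 were the 2 members with counts in every BRE library. Arg2 had 7, 9 and 11 counts in BRE-positive libraries, against 5, 4 and 2 in the BRE-negative libraries of the same pairs. It was higher on the BRE-positive side of all 3 pairs, at 0.290 ± 0.107 CPM in BRE-positive and 0.112 ± 0.039 CPM in BRE-negative cells (SD, n = 3 each). Of all genes tested 16.9% were higher in 3 of 3 pairs. In the fit without a count filter Arg2 had 1.28 ± 0.69 on the log2 scale (edgeR adjusted p = 0.41), so it did not pass. On the TPM scale Arg2 averaged 0.662 ± 0.270 in BRE-positive and 0.268 ± 0.064 in BRE-negative cells (SD, n = 3 each), with 0.585 ± 0.382 in KO (SD, n = 4) and 2.51 ± 0.59 in FL (SD, n = 2). Sp110 had 2, 5 and 9 counts in BRE-positive libraries, against 11, 7 and 3 in BRE-negative ones, and was higher in 1 of 3 pairs (-0.37 ± 0.68, edgeR adjusted p = 0.87 without the filter).

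**Figure D3:**
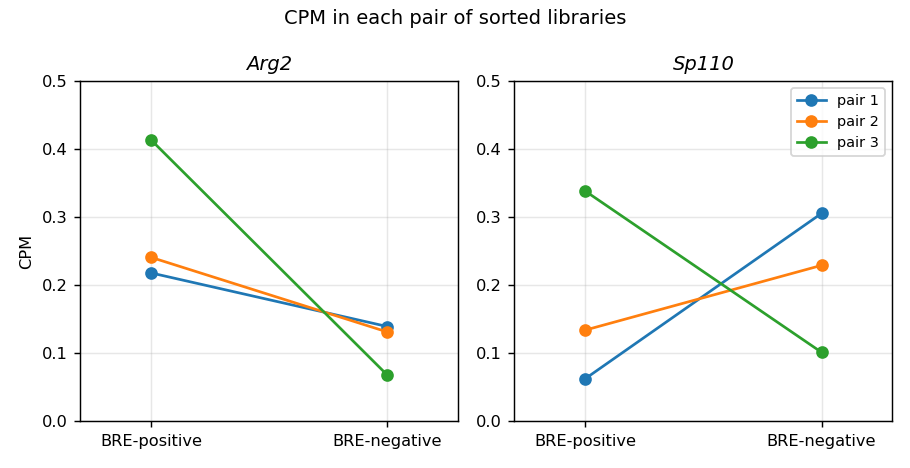
CPM of Arg2 (left) and Sp110 (right) in the BRE-positive and BRE-negative library of each of the 3 pairs, joined by lines. Arg2 is higher in the BRE-positive library of every pair, and Sp110 in 1 of 3.

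Other genes of the 2-cell-like state were read from lists compiled with earlier results of these data known, so they are no independent support for the members. All 5 counted Zscan4 genes were lower in KO (median log2 fold change -3.22), against 3.18% of all genes tested called lower. Zscan4d, the most abundant, had 3.61, 0.650, 4.002 and 3.56 CPM in KO, against 25.3 and 29.9 CPM in FL (-3.22 ± 0.49, edgeR adjusted p = 0.016). Zscan4c (-3.21 ± 0.31) and Zscan4b (-3.43 ± 0.38) followed (edgeR adjusted p = 0.0064 and 0.0080). The summed Zscan4 level was 7.31, 1.89, 7.53 and 5.94 CPM in KO replicates 1 to 4, against 50.5 and 55.2 CPM in FL, with KO replicate 2 lowest as for the members.

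Of 54 further symbols on the 2-cell-like list, 49 genes were counted and 32 tested. Of these, 20 were called lower and 0 higher in KO, against 3.18% and 1.85% of all genes tested. The median log2 fold change of the tested genes was -2.63. A gene can pass the filter on low counts through the FL libraries alone, while genes near 0 in FL drop out. The share and the median are shaped by this filter. The 20 had values from -3.86 to -2.40 (edgeR adjusted p between 0.0089 and 0.036). Duxf3, which encodes DUX and was matched by its Ensembl identifier, had 11, 3, 7 and 4 counts in KO, against 28 and 45 in FL (-2.40 ± 0.49, edgeR adjusted p = 0.036). Its call held in 1 of the 6 fits without 1 of the libraries, that without KO replicate 1. The more abundant genes that fell were Gm12794 (-3.42 ± 0.51), Gm13119 (-3.37 ± 0.49), Gm5662 (-2.89 ± 0.40) and Gm8994 (-2.76 ± 0.37). Among the 12 that did not pass, Usp26, the most abundant of the list, had 34.02, 193, 159 and 165 CPM in KO replicates 1 to 4, against 161 and 86.6 CPM in FL (0.16 ± 0.57, edgeR adjusted p = 0.90). It was lowest in KO replicate 1, while the members were lowest in KO replicate 2, and without 1 library its log2 fold change ran from -0.24 to 0.68. Zfp54 had 0.57 ± 0.24 (edgeR adjusted p = 0.20). These counts rest on both FL libraries. Without FL replicate 1, edgeR called 0 genes in the whole table (1948 at an unadjusted p under 0.05), and without FL replicate 2 it called 3 Zscan4 genes and 2 of the list.

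Between the reporter groups, 4 genes of that list passed the filter and 0 were called, with 0 of 5 Zscan4 genes tested. Usp26 averaged 1.38 ± 0.15 CPM in BRE-positive and 0.737 ± 0.330 CPM in BRE-negative cells (SD, n = 3 each), with 0.97 ± 0.27 on the log2 scale (edgeR adjusted p = 0.068), and was higher in 3 of 3 pairs. It passed with no filter and without pair 3. Over these 4 genes and the 25 regulators below, 6 had an unadjusted p under 0.05, as had 18.3% of all genes tested.

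Of 5 activators, Dppa2 was lower, at 57.95 ± 6.88 CPM in KO (SD, n = 4) and 84.7 ± 6.95 CPM in FL (SD, n = 2), a change of -0.55 ± 0.11 on the log2 scale (edgeR adjusted p = 0.039). DPPA2 and its partner DPPA4 bind DNA together and are known to switch on Duxf3 in mouse embryonic stem cells. Dppa2 did not pass in any of the 6 fits without 1 of the libraries (edgeR adjusted p between 0.055 and 0.18). Dppa4 had 0.39 ± 0.11 (edgeR adjusted p = 0.092), and Nelfa, Trp53 and Gata2 did not pass (edgeR adjusted p between 0.24 and 0.48). Of 20 repressors, edgeR called 0 (8 at an unadjusted p under 0.05, against 22.9% of all genes tested) and DESeq2 0. Their log2 fold changes ran from -0.21 to 0.35, with a median of 0.14, against 0.01 over all genes tested. Of the 20, 4 were fitted below 0. Trim28, a corepressor that silences endogenous retroviruses, had 0.18 ± 0.07 (edgeR adjusted p = 0.16) in KO and -0.19 ± 0.05 (edgeR adjusted p = 0.051) in BRE-positive over BRE-negative cells. The second value passed with DESeq2, with no filter and without pair 1.

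**Figure D4:**
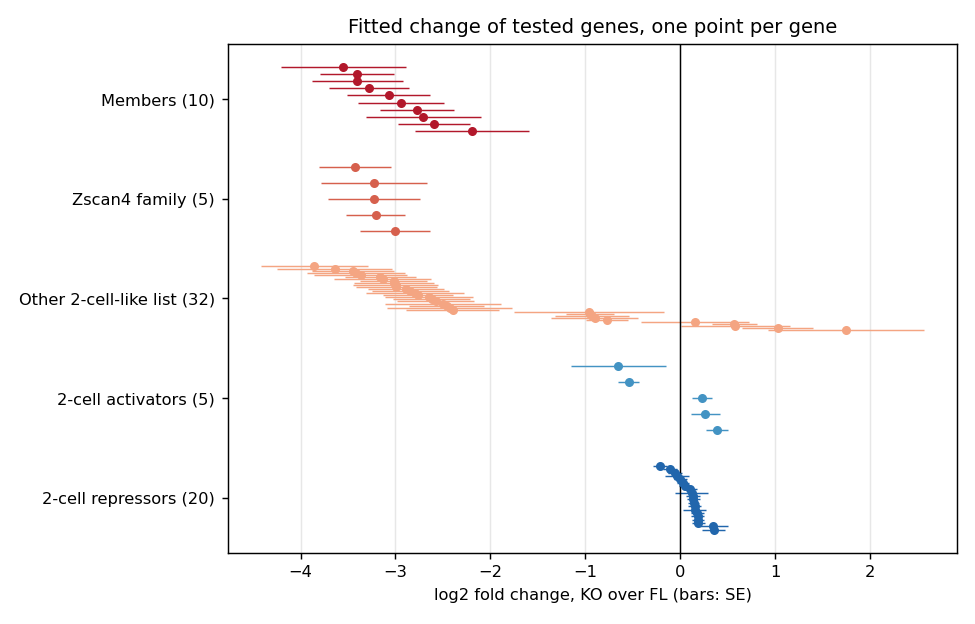
Fitted log2 fold change of KO over FL with its SE, 1 point per tested gene, for the members, the Zscan4 family, the other 2-cell-like list and the known activators and repressors. The members lie between -3.55 and -2.20, most of the other 2-cell-like list lies in the same range, and the 20 repressors lie between -0.21 and 0.35.

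Several members sit among genes that were also lower in KO. Within 200 kb of the 10 genes lay 143 other counted genes, of which 44 were tested. Of these, 15 were called lower and 0 higher, against 3.18% and 1.85% of all genes tested. A neighbour can pass the filter on low counts through the FL libraries alone. Several neighbours share transcript sequence with a member, and some are also on the other 2-cell-like list. Their share is thus tied to how the members were chosen, and no result on the regions is read from it. Chosen after their values were seen, these neighbours are named by place. Around Tmem92 they were Gm11543, Gm11544, Gm11546 and AA623943. Around Tcstv1 they were AF067063, D13Ertd608e and Gm21761, and around Tcstv3 Gm20767, AF067061 and BC147527. Near BC080695 Gm13083 and Gm13078 fell, near Usp17la Usp17lb and Usp17le, and near Usp17lc Usp17ld. Zfp352 had no tested neighbour, and of 9 tested genes around Arg2 and 3 around Sp110 none was called.

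Reads of near-identical copies may be assigned to either, and how the counting treated them is not stated. The share of 50-base windows of a member's transcripts that also occurs in transcripts of other genes, on either strand, was 55.3% for BC080695, 44.7% for Usp17lc, 42.3% for Sp110, 41.2% for Tdpoz4 and 31.4% for Tcstv3. It was 21.2% for Arg2, with Vti1b, which overlaps its end on the other strand, holding 17.1%, and 20.1% for Usp17la. It was lower for Tcstv1 (14.96%), Zfp352 (7.09%) and Tmem92 (1.93%). The windows of Sp110 were spread over 136 other genes. Counts of the members are uncertain to the extent that reads fall in shared windows. Tmem92 and Zfp352, with the least shared sequence, had log2 fold changes of -3.28 and -2.94. Both were chosen on the contrast of KO with FL, and the part of shared reads in the changes was not tested.

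**Figure D5:**
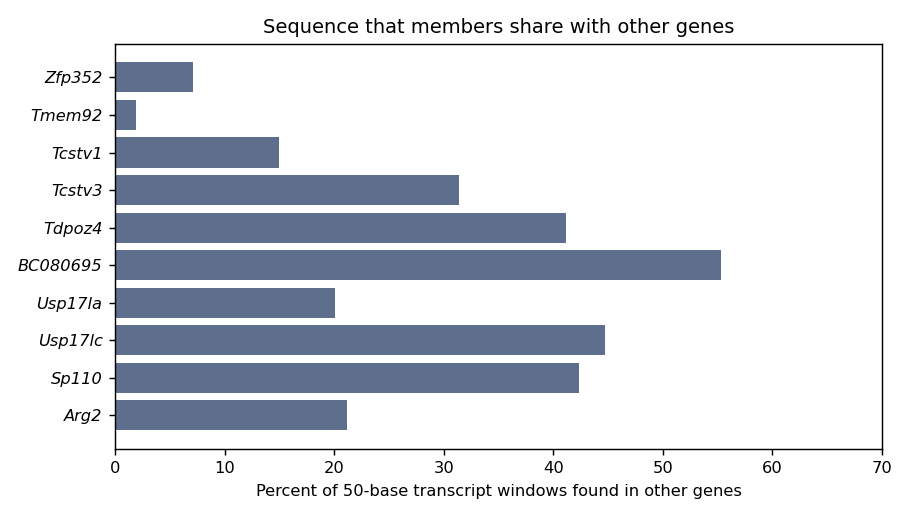
Percent of each member's 50-base transcript windows that also occur in transcripts of other genes (bars, GENCODE M21). BC080695 has the highest share, 55.3%, and Tmem92 the lowest, 1.93%.

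The genes with the most similar pattern were ranked by the Pearson correlation of log2 CPM with the mean profile of the members over the 12 libraries, which reflects the same FL and KO libraries that chose the members. Of 15808 other genes, 166 had a correlation of at least 0.9. The 10 highest, between 0.985 and 0.992, were Zscan4b, Gm13106, Gm11232, Gm11546, Gm11543, Gm5939, Gm5117, Gm4778, Gm5699 and Cst9. Only Zscan4b among them was on the lists above. Gm11546 and Gm11543 are pseudogenes beside Tmem92. Over the 6 Smad1/5 libraries alone these 10 had correlations between 0.969 and 0.996, and 2 of them were among the 10 highest. In that ranking Gm8994, Gm8300, Pramef25, Gm2022 and Zscan4b were on the lists above, and the rest of its 10 highest were not.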

How the data were processed

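Total RNA was sequenced after ribosomal RNA removal with a stranded kit, per the labels' protocols. The authors deposited whole-number counts for 39179 Ensembl genes and a table headed TPM with gene symbols. The submitters' processing notes name STAR 2.4.1d, featureCounts 1.4.6, DESeq2 1.6.3, FastQC 0.11.3 and CASAVA 1.8.2, and the builds GRCm38.p4 and mm10. Not given in the sources used here are the annotation release, the strand setting and the treatment of reads shared by copies. The deposited TPM signal equals (count + 1) over gene length, scaled per library, over 38310 genes.

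Genes were tested by the quasi-likelihood fit of edgeR 4.0.16 under R 4.3.3, with TMM scaling, a minimum count of 10 and total of 15, and Benjamini-Hochberg adjusted p under 0.05 over all genes tested. Reporter libraries were fitted with the pair as a block, since the series states that they were collected in pairs (correlations of deviations between same-numbered libraries 0.712, 0.589 and 0.529). KO and FL libraries were fitted without a block. Standard errors are of the log2 fold change. The members and gene lists were chosen with earlier results of these data known. Named beside the members were the 3 most abundant Zscan4 genes, the 6 most abundant of the other list, Duxf3, Dppa2, Dppa4, Trim28 and any called regulator, the 10 genes most like the members, and copies of members. Any other gene was picked with its values in view. The series calls the samples biological replicates without describing separate cultures, so the spread behind the p-values is that between these libraries and may be technical. The fit counts the KO libraries as independent, although each line gave a pair. Counting limits at 3 counts cover counting error only and use library totals without the TMM factors. The scripts were tested on simulated data. Alternatives were DESeq2 1.42.0, RLE scaling, other filters, limma 3.58.1 on log2 TPM, other blocks and each library left out.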

Additional observations from a re-analysis of the deposited data

Results flagged for a closer look

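Zscan4d in the KO libraries was flagged because 1 library lay far below the others. KO replicate 2 had 0.65 CPM, against 3.56 to 4.0 CPM in the other 3 KO libraries. The gap to the next library was 0.869 of the whole range, above the critical value of Dixon's test for 4 samples. Chance flags about 1 in 20 groups, and 23 groups were examined. The same library was the lowest of the 4 for all 10 members.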

How the results depend on the processing

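The members stayed lower in KO under each of the 15 alternatives for that comparison that gave them a value. On log2(TPM + 1), which compresses low values by its construction, Tcstv1 had -0.78 against -3.40, Sp110 -0.96 against -3.07, Usp17lc -1.04 against -2.59, Usp17la -1.20 against -2.77 and Zfp352 -1.92 against -2.94. On log2(TPM + 0.1) Tcstv1 had -2.25, and with the replicate block Tdpoz4 had -3.77 against -2.71. The number of genes called between KO and FL, 801, was 1498 with DESeq2, 360 with limma on log2(TPM + 1), 136 on log2(TPM + 0.1), 198 with a mean TPM of at least 1, and 0 with the replicate number as a block (2589 at an unadjusted p under 0.05). The shared numbers 1 and 2 do not show a pairing of FL with KO. With this block KO replicates 3 and 4 have no FL library of their number, so its fitted changes rest on replicates 1 and 2. Leaving out 1 library gave 0 to 857, with 0 without FL replicate 1, 142 without FL replicate 2, 236 without KO replicate 3 and 215 without KO replicate 4. With 1 FL library, that library is assumed to vary like the KO libraries.

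Called Zscan4 genes, 5, were 2 with log2(TPM + 0.1), 0 with the replicate block and 0 to 5 without 1 library. Called genes of the other 2-cell-like list, 20, were 13, 4 and 12 in the limma fits above, 0 with the replicate block and 0 to 20 without 1 library (13 without KO replicate 4). Called activators, 1, were 2 with DESeq2, 0 with all 12 libraries in 1 fit, 0 in the limma fits and with the replicate block, and 0 to 1 without 1 library, where the 1 was Gata2 without KO replicate 1.

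Between the reporter groups, the 459 calls were 1010 with no filter, 0 with all 12 libraries in 1 fit, 0, 42 and 0 in the limma fits, 0 with no replicate block (343 at an unadjusted p under 0.05) and 200 to 2225 without 1 pair (200 without pair 3, 2225 without pair 1). The fit of all 12 libraries also left out the pair block. The other 2-cell-like list, with 0 calls, had 2 with no filter and 0 to 2 without 1 pair. The repressors, with 0, had 1 with DESeq2, 3 with no filter and 0 to 5 without 1 pair. Usp26 in KO over FL, 0.16, which did not pass, reversed to -0.0723, -0.0786 and -0.0723 in the limma fits, -0.52 with the replicate block, and -0.24 without FL replicate 2 and -0.0524 without KO replicate 2 (-0.24 to 0.68 without 1 library). No other result reversed. Other causes were not tested. Between the reporter groups the members had at most 11 counts in a library.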

Other observations

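In the reporter experiment the first pair had no count of any of the 5 Zscan4 genes in either library. The Zscan4 genes summed to 0, 22 and 11 counts in BRE-positive libraries 1 to 3, against 0, 17 and 12 in BRE-negative libraries 1 to 3. Usp17la and Usp17lc together had 0, 5 and 4 counts in BRE-positive libraries, against 0, 8 and 3 in BRE-negative ones. The members as a set did not share this. All 10 together had 10, 21 and 25 counts in BRE-positive libraries, against 17, 24 and 11 in BRE-negative ones. Sp110 had 2, 5 and 9 against 11, 7 and 3 counts, and Arg2 7, 9 and 11 against 5, 4 and 2. On the BRE-negative side both were highest in the first pair. Arg1, the cytosolic arginase, had 0, 26 and 13 counts in BRE-positive libraries, against 0, 13 and 9 in BRE-negative ones. Obox6, a homeobox gene, had 1, 24 and 14 counts in BRE-positive libraries, against 0, 2 and 4 in BRE-negative ones. Usp26 did not share the pattern, with 39, 56 and 38 counts in BRE-positive libraries, against 15, 22 and 32 in BRE-negative ones. The 10 feeder markers other than Fn1 and Vim also stood lowest in the first pair, at 45.03, 135 and 115 CPM in BRE-positive libraries 1 to 3, against 73.2, 158 and 150.03 CPM in BRE-negative ones. Among them Postn had 24, 296 and 181 counts in BRE-positive libraries, against 40, 281 and 316 in BRE-negative ones. The 10 markers of differentiated cells summed to 21.3, 33.1 and 35.05 CPM in BRE-positive libraries, against 17.5, 32.4 and 41.7 CPM in BRE-negative ones. The part of these markers in the differences between pairs was not tested. The genes were chosen after their values were seen, and the difference between pairs was not tested.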
